A study of Mus musculus with 6 samples.

Results

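The D cyclins, their kinases and the inhibitors of those kinases were followed as a group of 10 genes chosen by name: the cyclin genes Ccnd1, Ccnd2 and Ccnd3, the kinase genes Cdk4 and Cdk6, and the inhibitor genes Cdkn1a, Cdkn1b, Cdkn1c, Cdkn2c and Cdkn2d. All 10 were found among the 39179 gene rows of the deposited counts, and all 10 were among the 16691 genes that passed the filter on low counts. RNA-seq covered 6 libraries of newborn mouse retina at postnatal day 0.5, of mixed background that is mostly CD-1, with 3 libraries a genotype. The control mice carried floxed Lhx2 alleles (Lhx2 lox/lox) and no Cre. The conditional knockout (cKO) mice carried the same floxed alleles together with Pdgfrα-Cre, a transgene that makes the Cre recombinase under the Pdgfrα promoter, so that deletion is limited to cells with a history of that promoter. Both genotypes are floxed, and no group with Cre alone was analysed here. Lhx2 encodes a LIM-class homeodomain factor needed early in eye development, and the study asked for its role shortly before Müller glia form. Below, the control libraries carry the label numbers 2, 3 and 4, and the cKO libraries 1, 2 and 3.

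D cyclins are made in response to growth signals and bind CDK4 or CDK6. The active pair phosphorylates the retinoblastoma protein RB, which then releases E2F factors, and E2F target genes carry the cell from G1 into S phase. Inhibitors of the INK4 family (Cdkn2c for p18, Cdkn2d for p19) bind the kinases alone, while those of the Cip/Kip family (Cdkn1a for p21, Cdkn1b for p27, Cdkn1c for p57) bind cyclin and kinase together and also act on CDK2. In the retina Ccnd1 is the main D cyclin of dividing progenitors, and p27 and p57 are known for taking progenitors out of the cell cycle.

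The short motifs by which these proteins find their partners show how the families differ, so their coding sequence is given first. D cyclins dock on RB through an LxCxE motif near the amino terminus. In each coding sequence (GENCODE vM21, GRCm38, 5′ to 3′ on the coding strand, first 60 coding bases) its codons are in capitals. The stretches lie at chr7:144939634-144939693 on the minus strand for Ccnd1, at chr6:127150714-127150773 on the minus strand for Ccnd2 and at chr17:47593655-47593714 on the plus strand for Ccnd3, all in coding exons.
Ccnd1: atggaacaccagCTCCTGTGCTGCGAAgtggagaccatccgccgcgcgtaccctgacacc
Ccnd2: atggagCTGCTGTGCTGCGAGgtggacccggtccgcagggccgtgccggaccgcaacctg
Ccnd3: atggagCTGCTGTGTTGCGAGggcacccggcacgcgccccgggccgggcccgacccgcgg
The Cip/Kip inhibitors share a cyclin-binding motif, CRxLFG, whose codons are in capitals in the next 3 stretches. These are coding bases 31 to 90 of Cdkn1a (chr17:29098438-29098497, plus strand), 67 to 126 of Cdkn1b (chr6:134920986-134921045, plus strand) and 76 to 135 of Cdkn1c (chr7:143460573-143460632, minus strand).
Cdkn1a: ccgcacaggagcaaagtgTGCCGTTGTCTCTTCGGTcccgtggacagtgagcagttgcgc
Cdkn1b: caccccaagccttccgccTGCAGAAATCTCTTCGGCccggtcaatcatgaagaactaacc
Cdkn1c: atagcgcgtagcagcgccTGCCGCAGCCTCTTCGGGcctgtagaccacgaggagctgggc
Identity was taken over all aligned coding bases, motifs included, with bases set against a gap left out. Lengths differ most between Cdkn1a (480 coding bases) and Cdkn1c (1047), of which 466 were aligned. These shares therefore do not rank the pairs by relatedness. It was 72.5% between Ccnd1 and Ccnd2, 68.7% between Ccnd1 and Ccnd3 and 70.6% between Ccnd2 and Ccnd3. Among the Cip/Kip genes it was 65.6% between Cdkn1a and Cdkn1b, 75.5% between Cdkn1a and Cdkn1c and 70% between Cdkn1b and Cdkn1c. No stretch of 50 bases was shared between any of the 10 genes' transcripts (0 pairs), so reads of that length from one member do not match another.

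Other genes overlap some of the members, and that limits their counts. Of the annotated exon bases of Ccnd1, 23.4% are also exon of LTO1 on the opposite strand, and 19.7% of those of Cdk4 are exon of Tspan31. The share was 7.86% for Ccnd2, 7.68% for Cdkn1a, 4.11% for Ccnd3 and 2.63% for Cdk6. For Cdkn1c it was 30.7%, all with Gm44732, a gene that has no row in the counts. The genes that overlap Cdkn1a and Cdk6 have no row either. Ccnd2 overlaps 9330179D12Rik, which has a row, and Gm43126, which has none. Cdkn1b, Cdkn2c and Cdkn2d share no exon base with another gene. No source used here gives the strand setting of the counting, and reads in overlaps may be lost or misassigned. Of the overlapping genes, neither LTO1 (log2 0.018, SE 0.14, adjusted p = 0.95) nor Tspan31 (log2 -0.047, SE 0.11, adjusted p = 0.829) passed in edgeR.

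Depth was 31483170 to 66947478 gene counts a library, and the libraries fell into a pair of sets that cross genotype. Set A (control 2, cKO 1 and cKO 2) had 3.13 to 3.20% of all deposited counts ambiguous between genes, and set B (control 3, control 4 and cKO 3) had 2.63 to 2.69%. The boundary was placed at 2.9%. Between sets, 63.7% of all genes differed (edgeR's quasi-likelihood test, adjusted p under 0.05), so each comparison has library set as a term, and for the 10 genes the value for genotype alone is given too. By Y-linked genes, controls 2 and 4 were male and the other 4 libraries female, so in set A sex and genotype cannot be told apart. For Lhx2 itself, controls 2, 3 and 4 held 399, 266 and 258 CPM (gene counts scaled to a common library size, with TMM factors), and cKO 1, 2 and 3 held 252, 287 and 224. The groups overlap, with cKO 2 above controls 3 and 4. The log2 fold change of Lhx2 was -0.40 (SE 0.099, adjusted p = 0.0338, edgeR), and set A by itself gave -0.57 and set B -0.22. Gene counts include exons that may lie outside the deleted part. The retinal progenitor gene Rax was detected in every library, at 57.5 to 180 CPM, while lens genes, described further on, were at a higher summed level in every cKO library than in any control.

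The D cyclins moved in opposite directions in the cKO retinas. Ccnd1 was 1.94-fold lower, Ccnd2 rose 2.69-fold, and the inhibitor Cdkn1c rose 4.68-fold, the largest change of the 10 genes. Cdkn1b and Cdkn2c fell. Fitted with library set, 3 members were called lower, 2 higher and 5 neither (edgeR's quasi-likelihood test, Benjamini-Hochberg adjusted p under 0.05 over all genes). Over all genes tested, 5.63% were called lower and 6.36% higher, 12% in either direction. With genotype alone 1 member passed, Cdkn1c, where 0.216% of all genes rose and 0 fell (461 lower genes at an unadjusted p under 0.05, and 3 members in either direction). In whole retina, fewer cells of a type and less RNA per cell cannot be told apart.

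**Figure D1:**
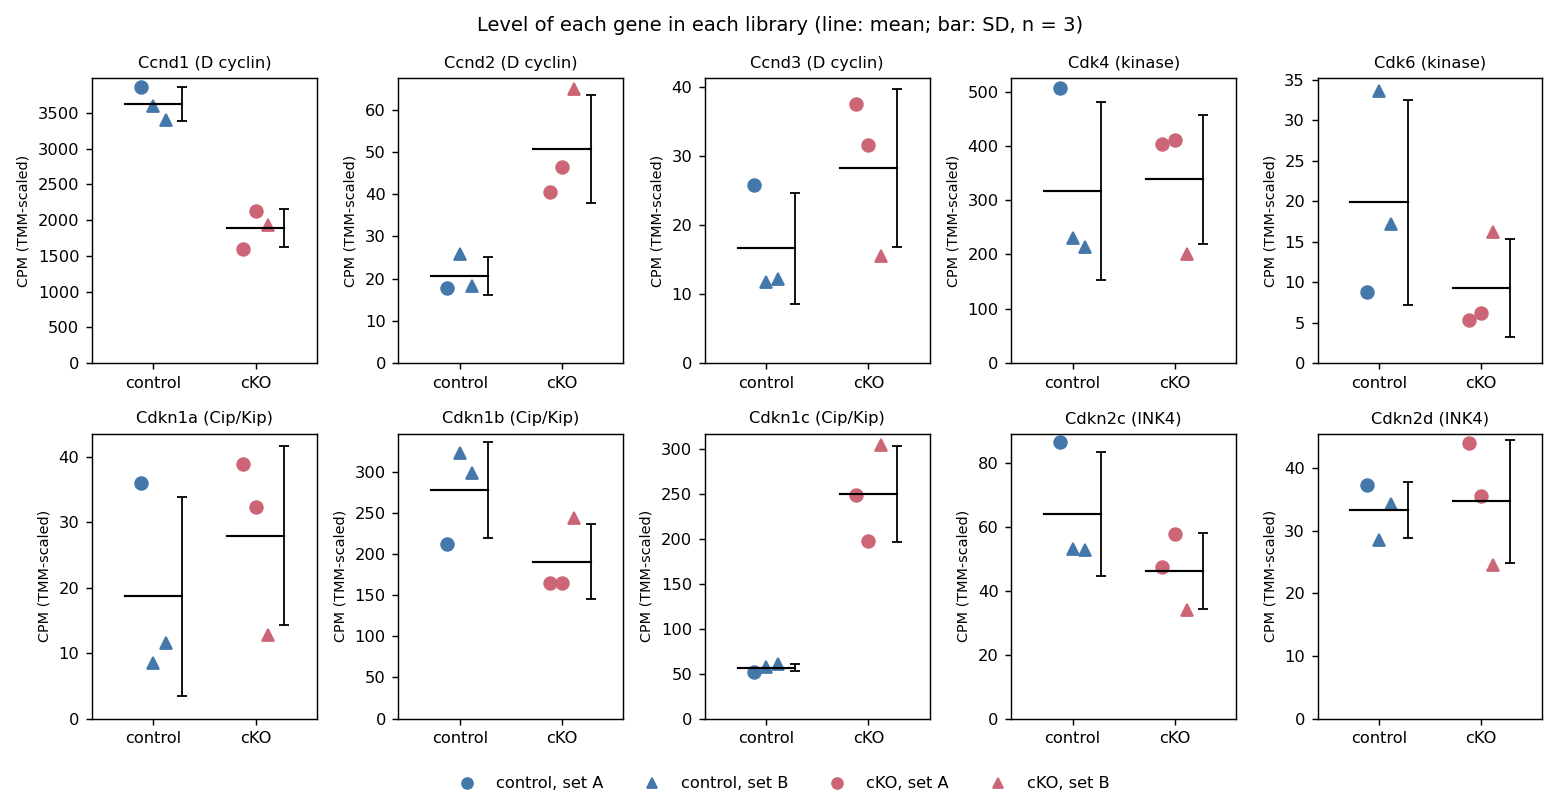
Level of each of the 10 genes in each library (y axis: CPM scaled by TMM, linear from 0; x axis: genotype). Circles are set A and triangles set B, black lines are means and bars SD (n = 3). Ccnd1 is lower in all 3 cKO libraries than in any control, Ccnd2 and Cdkn1c are higher in all 3, and Cdk4, Ccnd3, Cdk6 and Cdkn1a follow the set more than the genotype.

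Ccnd1 (ENSMUSG00000070348; GRCm38 chromosome 7, 144929931 to 144939925, minus strand) is the most abundant of the 10. Controls 2, 3 and 4 held 3870, 3595 and 3397 CPM, and cKO 1, 2 and 3 held 1601, 2124 and 1934. The groups do not overlap, and the spread within each group is small beside the gap between them. Ccnd1 was also the 1 member that did not pass the test between library sets (log2 difference -0.046, SE 0.12, adjusted p = 0.759, edgeR). It fell by 0.95 on the log2 scale (SE 0.12, 95% interval -1.23 to -0.68, adjusted p = 0.00254, edgeR), and set A by itself gave -1.07 and set B -0.85. Genotype alone gave -0.94 with a wider error (SE 0.23, adjusted p = 0.330, edgeR). Per length of exon Ccnd1 ranked 20 of 16509 genes in controls and 48 in cKO retinas.

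Ccnd2 (ENSMUSG00000000184; GRCm38 chromosome 6, 127125162 to 127152193, minus strand) stood at 17.7, 25.9 and 18.2 CPM in controls 2, 3 and 4. The cKO libraries 1, 2 and 3 held 40.6, 46.5 and 65.0 CPM, all above every control. Its log2 fold change was 1.43 (SE 0.14, 95% interval 1.10 to 1.76, adjusted p = 0.000824, edgeR), and set A by itself gave 1.29 and set B 1.58. The fit of genotype alone gave 1.3 (SE 0.27, adjusted p = 0.223). For Ccnd3, the remaining D cyclin, the controls gave 25.8, 11.7 and 12.2 CPM, while the cKO libraries gave 37.6, 31.6 and 15.5. Those groups overlap over all libraries, but within each set the cKO libraries are the higher ones. Its log2 fold change was 0.40 (SE 0.11, 95% interval 0.15 to 0.65, adjusted p = 0.0504, edgeR), and its difference between sets was larger (-1.13, SE 0.11). Genotype alone gave 0.77 (SE 0.45, adjusted p = 0.797). Whether Ccnd3 is called depends on the processing: it passed with library totals alone (adjusted p = 0.0409), no filter on low counts (0.0466), a mean CPM of at least 1 (0.0449) and DESeq2 (0.0366), and leaving out 1 library gave adjusted p from 0.0514 to 0.294.

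Compared per length (CPM per kb of exon), the levels of Ccnd2 and Ccnd3 were far below that of Ccnd1 in both genotypes. Ccnd1 stood at 769 ± 50.5 CPM per kb in controls and 401 ± 56.3 in cKO retinas (SD, n = 3 each), against 2.19 ± 0.487 and 5.39 ± 1.35 for Ccnd2 and 1.89 ± 0.911 and 3.22 ± 1.3 for Ccnd3. Summed over the D cyclins, the level was 725 to 827 CPM per kb in controls and 349 to 460 in cKO libraries. Ccnd1 made up 99.4 to 99.5% of that sum in controls and 97.5 to 98.1% in cKO libraries. The share of Ccnd2 was 0.228 to 0.358% in controls and 1.08 to 1.65% in cKO libraries, so the groups do not overlap in either share.

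Neither kinase gene passed the test between genotypes. Cdk4 (ENSMUSG00000006728), the partner of D cyclins with the higher level here, gave 507, 230 and 214 CPM across controls 2, 3 and 4, against 403, 411 and 201 across cKO 1, 2 and 3. Over all libraries the levels split by library set: Cdk4 was lower in set B (log2 difference -1.10, SE 0.081, adjusted p = 5.93e-06, edgeR). Within each set the cKO values of Cdk4 were lower, and set A by itself gave -0.32 and set B -0.14. Between genotypes its log2 fold change was -0.23 (SE 0.080, 95% interval -0.41 to -0.049, adjusted p = 0.102), and 0.094 with genotype alone. Cdk6 (ENSMUSG00000040274) gave 8.74, 33.6 and 17.2 CPM across the controls, against 5.28, 6.2 and 16.2 across the cKO libraries. Within each set the cKO values were lower, with a log2 fold change of -0.63 (SE 0.24, 95% interval -1.16 to -0.093, adjusted p = 0.127), and Cdk6 was higher in set B (1.52, SE 0.24, adjusted p = 0.000467). Genotype alone gave -1.11 (SE 0.62, adjusted p = 0.794). This gene depends on the processing: leaving out control 3 gave -0.39, adding sex to the fit gave -1.20, and it was called lower without control 4 (adjusted p = 0.0313), in DESeq2 (0.0398) and with no filter on low counts (0.000343). Per length, Cdk4 exceeded Cdk6 29.5 to 249 times in controls and 53.4 to 328 times in cKO libraries.

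Among the Cip/Kip inhibitors, Cdkn1c (ENSMUSG00000037664; GRCm38 chromosome 7, 143458339 to 143461050, minus strand) changed most. Controls 2, 3 and 4 held 52.2, 57.3 and 60.8 CPM, and cKO 1, 2 and 3 held 248, 197 and 304. The groups do not overlap, and the gap between them exceeds the range of either group. Its log2 fold change was 2.23 (SE 0.11, 95% interval 1.97 to 2.49, adjusted p = 1.09e-05, edgeR), and set A by itself gave 2.08 and set B 2.36. Genotype alone gave 2.14 (SE 0.22, adjusted p = 0.0440).

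Cdkn1b (ENSMUSG00000003031), which encodes p27, went the other way. Controls 2, 3 and 4 held 212, 323 and 299 CPM, and cKO 1, 2 and 3 held 165, 165 and 243. The groups overlap over all 6 libraries, and the cKO values are the lower ones within each set. Cdkn1b fell by 0.36 on the log2 scale (SE 0.076, 95% interval -0.53 to -0.19, adjusted p = 0.0175, edgeR), by a like amount in set A (-0.36) and set B (-0.35). Without control 2, control 3 or cKO 3 that call was lost (adjusted p = 0.159, 0.0788 and 0.199), as it was with genotype alone (-0.54, SE 0.26, adjusted p = 0.738). Cdkn1a, the p53-induced inhibitor p21, gave 36.1, 8.44 and 11.5 CPM across the controls, against 38.9, 32.3 and 12.7 across the cKO libraries. It was high in set A of either genotype and lower in set B (-1.67, SE 0.15, adjusted p = 1.98e-05, edgeR). Its log2 fold change between genotypes was 0.15 (SE 0.15, 95% interval -0.19 to 0.50, adjusted p = 0.589), and 0.58 (SE 0.65, adjusted p = 0.817) with genotype alone.

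Per length, Cdkn1b exceeded Cdkn1c in controls and Cdkn1c exceeded Cdkn1b in cKO retinas. Controls held 61.1 ± 12.8 CPM per kb of Cdkn1b and 27.8 ± 2.13 of Cdkn1c, and cKO retinas 41.9 ± 9.98 and 122 ± 26.2 (SD, n = 3 each). The ratio of Cdkn1c to Cdkn1b was 0.396 to 0.550 in controls and 2.67 to 3.37 in cKO libraries. Cdkn1c made up 27.7 to 31.1% of the summed Cip/Kip level in controls and 68.1 to 72.3% in cKO libraries. That sum was 82.3, 101 and 98.8 CPM per kb in controls 2, 3 and 4 and 169, 142 and 206 in cKO 1, 2 and 3, so the groups do not overlap. These ratios and sums are descriptions and were given no test.

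Of the INK4 genes, Cdkn2c (ENSMUSG00000028551; GRCm38 chromosome 4, 109660876 to 109667189, minus strand), which encodes p18, fell. Controls 2, 3 and 4 held 86.5, 53.0 and 52.8 CPM, and cKO 1, 2 and 3 held 47.5, 57.7 and 33.9. Over all libraries cKO 2 lies above controls 3 and 4, whereas within each set the cKO values are lower. Its log2 fold change was -0.68 (SE 0.097, 95% interval -0.90 to -0.46, adjusted p = 0.00410, edgeR), set A by itself gave -0.72 and set B -0.64, and the call was lost without control 2 (adjusted p = 0.0548) or cKO 3 (adjusted p = 0.0562). Genotype alone gave -0.47 (SE 0.30, adjusted p = 0.817). Cdkn2d, which encodes p19, gave 37.4, 28.6 and 34.2 CPM across the controls, against 44.0, 35.6 and 24.5 across the cKO libraries. The groups overlap, and the log2 fold change was -0.13 (SE 0.14, 95% interval -0.45 to 0.20, adjusted p = 0.637), and 0.056 (SE 0.26, adjusted p = 0.942) with genotype alone. The INK4 sum was 37.9 to 56.0 CPM per kb in controls and 28.2 to 45.7 in cKO libraries. Those ranges overlap, and within each set the cKO sums are lower. The other INK4 genes, Cdkn2a and Cdkn2b, were at 0.852 and 0.410 CPM on average in controls and at 0.709 and 0.213 CPM in cKO retinas, low in every library.

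**Figure D2:**
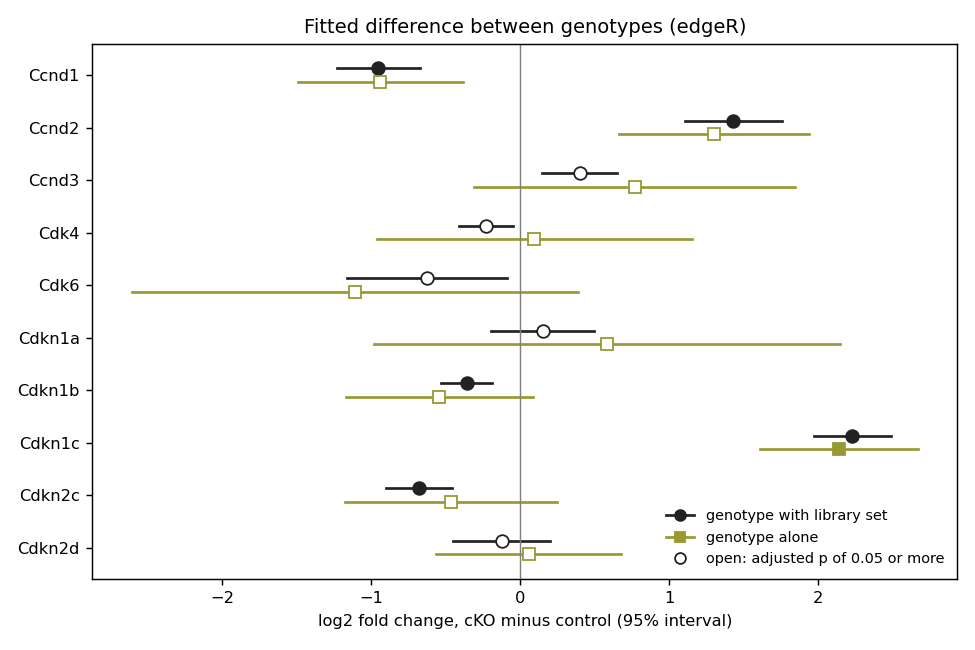
Fitted log2 fold change of each gene (x axis, cKO minus control) with its 95% interval, from edgeR with library set (circles) and with genotype alone (squares). Filled symbols have adjusted p under 0.05. With library set the filled symbols are Ccnd1, Cdkn1b and Cdkn2c below 0 and Ccnd2 and Cdkn1c above 0, and the intervals of Cdk4, Cdk6 and Ccnd3, whose symbols are open, also exclude 0; with genotype alone Cdkn1c (2.14) is the filled symbol.

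The values of single libraries were also compared. Across all 6 libraries 1 member had every cKO value below every control (Ccnd1) and 2 had every cKO value above (Ccnd2 and Cdkn1c), where 5.54% and 8.38% of all genes tested did so. Within both sets the cKO values were lower for 5 members and higher for 3, where 23.8% and 22.9% of all genes were. Those that did not keep a direction were Cdkn1a and Cdkn2d. In the test of whether the genotype difference depends on library set, 0 of 10 passed in edgeR or in DESeq2, and 0 had an unadjusted p under 0.05, where 0.024% of all genes passed. The sets themselves differed for 9 of the 10 members, all but Ccnd1, where 63.7% of all genes did; scaled by library totals alone 7 differed, without Ccnd2 and Cdkn1c.

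Control 3 and cKO 3 are the 1 pair of libraries of the same set and the same sex. Between them Ccnd1 was at 0.538 times the control level, Ccnd2 at 2.51 times, Cdkn1c at 5.30 times, Cdkn1b at 0.754 times and Cdkn2c at 0.641 times. This pair has no replicate. With sex as a further term in the fit Cdkn1c passed (log2 fold change 2.34, SE 0.20, adjusted p = 0.00398, edgeR) and 0 members fell (4 at an unadjusted p under 0.05). Ccnd1 then had -0.96 (SE 0.20, adjusted p = 0.0794), Ccnd2 1.19 (SE 0.21, adjusted p = 0.0518), Cdkn2c -0.67 (SE 0.16, adjusted p = 0.0990) and Cdkn1b -0.43 (SE 0.13, adjusted p = 0.162), each with a larger error than without that term. Cdk6 had -1.20 (SE 0.22, adjusted p = 0.0554, edgeR), where its SE without that term was 0.24.

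Cyclin was set against inhibitor in each library as the ratio of levels per length. Ccnd1 over Cdkn1c was 32.1, 27.2 and 24.2 in controls 2, 3 and 4 and 2.79, 4.67 and 2.76 in cKO 1, 2 and 3. Every control ratio exceeds every cKO ratio, with group means of 27.8 ± 4.0 and 3.41 ± 1.10 (SD, n = 3 each). Ccnd1 over Cdkn1b was 17.6, 10.8 and 11 in controls and 9.40, 12.5 and 7.68 in cKO libraries. Here the groups overlap over all libraries, but within each set the cKO ratios are lower. The 3 D cyclins over all 5 inhibitors gave 5.17 to 5.98 in controls and 1.62 to 2.47 in cKO libraries. Over all libraries the summed kinases did not separate the genotypes. They were at 67.2 to 157 CPM per kb in controls and 63.1 to 127 in cKO libraries. Within each set the cKO sums were lower. Set A had 157 in control 2 against 124 and 127, and set B 73.3 and 67.2 in controls 3 and 4 against 63.1.

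**Figure D3:**
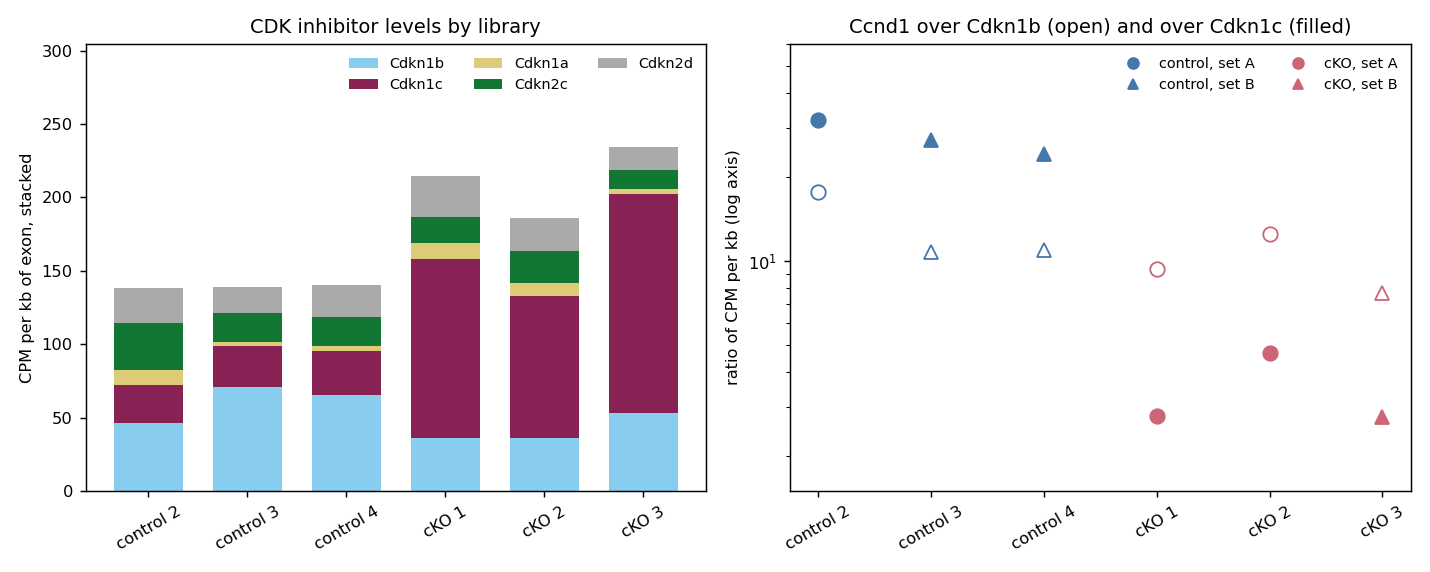
Left, stacked levels of the 5 inhibitor genes in each library (y axis: CPM per kb of exon); Cdkn1c is the largest part in the 3 cKO libraries, at 96.6 to 149, and Cdkn1b in the 3 controls, at 46.6 to 70.9. Right, Ccnd1 over Cdkn1b (open) and over Cdkn1c (filled) in each library on a log axis; the filled symbols separate the genotypes and the open ones overlap.

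Ordered by level per length, the controls ran Ccnd1, Cdk4, Cdkn1b, Cdkn1c, Cdkn2c, Cdkn2d, Cdkn1a, Ccnd2, Ccnd3 and Cdk6. Neighbours whose library ranges did not overlap were Ccnd1 and Cdk4, Cdkn1b and Cdkn1c, and Cdkn2d and Cdkn1a; the others in that order overlapped. In cKO retinas Cdkn1c moved from rank 4 to rank 2 among the 10, with a range overlapping that of Cdk4. Among 16509 genes Cdkn1c ranked 1872 in controls and 268 in cKO retinas, and Cdkn1b 659 and 1108.

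Other genes of the RB and E2F pathway fell or did not pass. Of 43 listed genes, all tested, 14 were called lower and 0 higher in the fit with set (edgeR, where 1 had an unadjusted p under 0.05 in that direction and DESeq2 gave 0), where 5.63% of all genes were called lower. With genotype alone, and with sex added to the fit, 0 were called lower (5 and 10 at an unadjusted p under 0.05). The median over the list was -0.21 (log2), against -0.000982 over all genes. The 4 with the smallest p were Cdk2, the kinase of S phase entry (-0.57, SE 0.085, adjusted p = 0.00465), E2f2 (-0.84, SE 0.14, adjusted p = 0.00696), the S phase cyclin gene Ccna2 (-0.62, SE 0.10, adjusted p = 0.00774) and Rbl1, which encodes the RB relative p107 (-0.63, SE 0.11, adjusted p = 0.00816). Others that fell were E2f1, E2f8, Ccne1, Ccne2, Cdc25a, Skp2, Cks1b, Fbxw7, Cdkn3 and Trp53, of which Skp2 and Cks1b encode parts of the ligase that degrades p27. Rb1 itself did not pass (0.086, SE 0.094, adjusted p = 0.625). The lower calls numbered 0 without control 2, 0 without cKO 3, 5 without control 3 and 8 without control 4, with 11, 13, 18 and 18 at an unadjusted p under 0.05.

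Genes with the pattern most like that of Ccnd1 were sought over the 6 libraries, by Pearson's r of log2 CPM centred within each set, among 9858 genes. The closest were Dek and Hmgb2, which encode chromatin proteins, Rbbp8, a DNA repair gene, Knstrn, a spindle gene, and Scarb1, a lipoprotein receptor gene (r from 0.9991 to 0.9996). With 6 libraries such values are common: 846 genes had r of at least 0.95. Centring within sets leaves the genotype difference in, so a high r can reflect that shared difference alone. For Cdkn1b, the Cip/Kip gene with the highest level per length in controls, the closest genes were Ing5, Tk1, Exosc1, Lbr and Nfatc2ip (r from 0.9973 to 0.9999). All these values share libraries and depth and carry no test.

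Markers of several cell types moved with the genotypes. Fitted with library set, all 9 S phase genes listed fell (median log2 fold change -0.66) and 7 of 9 retinal progenitor genes fell (median -0.75). Over all genes 5.63% were called lower and 6.36% higher in that fit. With genotype alone 0 genes were called lower and 0.216% higher. Ccnd1, at -0.95, fell beside the genes of both lists. S phase genes summed to 1610 to 2298 CPM in controls and 1132 to 1517 CPM in cKO libraries. For progenitor genes the sums overlapped, at 3138 to 3951 and 1860 to 3265 CPM, though within each set the cKO sums were lower. Pcna, the replication clamp, went from 339 ± 2.9 to 215 ± 7.81 CPM (SD, n = 3). Mcm2 overlapped between groups, with 169 CPM in cKO 2 and 153 in control 4. Mcm3, Mcm6, Mcm7 and Rrm2 likewise were higher in cKO 2 than in control 4, whereas Pcna, Mcm4, Mcm5 and Tyms did not overlap. All 9 ganglion cell genes rose (median 0.56), with a summed level of 1654 to 1800 CPM in controls and 2414 to 2802 CPM in cKO libraries. The part of these cell types in the changes of the 10 genes was not tested.

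Lens markers stood apart most. Of 10 listed lens genes 9 were tested and all 9 rose; their summed level was 2.51 to 5.90 CPM in controls and 2129, 2206 and 823 CPM in cKO 1, 2 and 3. Lim2, a lens fibre membrane gene, had 0 reads in all controls and at most 0.018 CPM in a cKO library. Cdkn1c is known to be made in lens fibre cells. The part of lens RNA in the changes of Cdkn1c, Ccnd2 and the other members was not tested. cKO 3, with the lowest lens sum of the cKO libraries, is also the only cKO library of set B. Among cKO libraries, lens sum and library set thus cannot be told apart. Fitted over both genotypes, the difference of set B from set A was 0.32 on the log2 scale for Cdkn1c (SE 0.11, adjusted p = 0.0319, edgeR). For Ccnd2 it was 0.45 (SE 0.14, adjusted p = 0.0200, edgeR). Scaled by library totals alone, neither gene passed that test. Leaving crystallin genes out of the counts gave a log2 fold change of 2.23 for Cdkn1c and -0.95 for Ccnd1. That step changes library sizes and scaling alone. It removes no reads of the members, so it cannot show what part of them came from lens cells. Without cKO 3, where set A alone informs the genotype, Cdkn1c had 2.12 and Ccnd2 1.33; without control 2, where set B alone does, they had 2.36 and 1.56.

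Other cells also differed. All 6 microglia genes rose (summed 20.8 to 35.1 CPM in controls and 58.2 to 76.3 CPM in cKO libraries). Of the 6 endothelial genes 4 rose and Kdr fell, while the 5 astrocyte genes did not pass. Of 8 amacrine and horizontal cell genes 1 rose, and of 7 photoreceptor precursor genes 2 fell. Of 3 blood genes 1 rose (median 1.79), with sums of 0.598 to 12 CPM in controls and 18.1 to 21.4 CPM in cKO libraries, which do not overlap. Of 6 pigment epithelium genes 5 were tested and 0 passed in edgeR (median 0.87), with sums of 8.15 to 14.5 CPM in controls and 12.8 to 28.5 CPM in cKO libraries. The part of these cells in the results was not tested.

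The table of RefSeq promoter windows used here (GRCm38.p6) covers 7 of the 10 members; those of Ccnd1, Ccnd2 and Cdkn1c were not analysed here. The windows run from 250 bases before to 50 after each start. Both inhibitor genes that fell had entries, and they are shown for that reason, as the 250 bases before the start, 5′ to 3′ on the gene's strand. Capitals mark matches on either strand to TAATTA, a core bound by many homeodomain proteins, to CACGTG, the E-box bound by Myc among others, to CCAAT, or to the E2F-type words TTTCGCGC and TTTGGCGC; overlapping matches count separately. The stretches lie at chr6:134920151-134920400 on the plus strand for Cdkn1b and at chr4:109665373-109665622 on the minus strand for the inner start of Cdkn2c. The window of the outer Cdkn2c start matched none of these words and is not printed. Counts below cover whole windows, so matches in the 50 bases after a start are counted but not printed.
Cdkn1b: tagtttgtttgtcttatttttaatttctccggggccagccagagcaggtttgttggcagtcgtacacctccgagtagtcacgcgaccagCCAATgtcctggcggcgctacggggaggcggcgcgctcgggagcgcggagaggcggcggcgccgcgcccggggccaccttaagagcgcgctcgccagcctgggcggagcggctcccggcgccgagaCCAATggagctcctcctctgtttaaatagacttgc
Cdkn2c: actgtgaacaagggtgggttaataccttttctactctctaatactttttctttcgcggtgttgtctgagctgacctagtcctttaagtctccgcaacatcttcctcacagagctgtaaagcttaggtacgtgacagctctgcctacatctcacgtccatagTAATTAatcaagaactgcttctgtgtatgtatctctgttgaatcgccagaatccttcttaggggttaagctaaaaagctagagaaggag
TAATTA occurred once, at the inner Cdkn2c start, among the members' 10 windows, and in 5.29% of all 32851 windows. CACGTG occurred 4 times in the Cdk4 window, once in that of Cdk6 and once at the inner Cdkn2c start, and in 7.15% of all windows. CCAAT occurred in 4 of the 10 windows, 3 times in that of Cdkn1b and once each in the second of Ccnd3, at the inner Cdkn2c start and in that of Cdkn2d, and in 37.4% of all. TTTCGCGC and TTTGGCGC were in none of the 10 windows and in 0.323% and 0.514% of all. Such matches describe letters and show no binding.

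**Figure D4:**
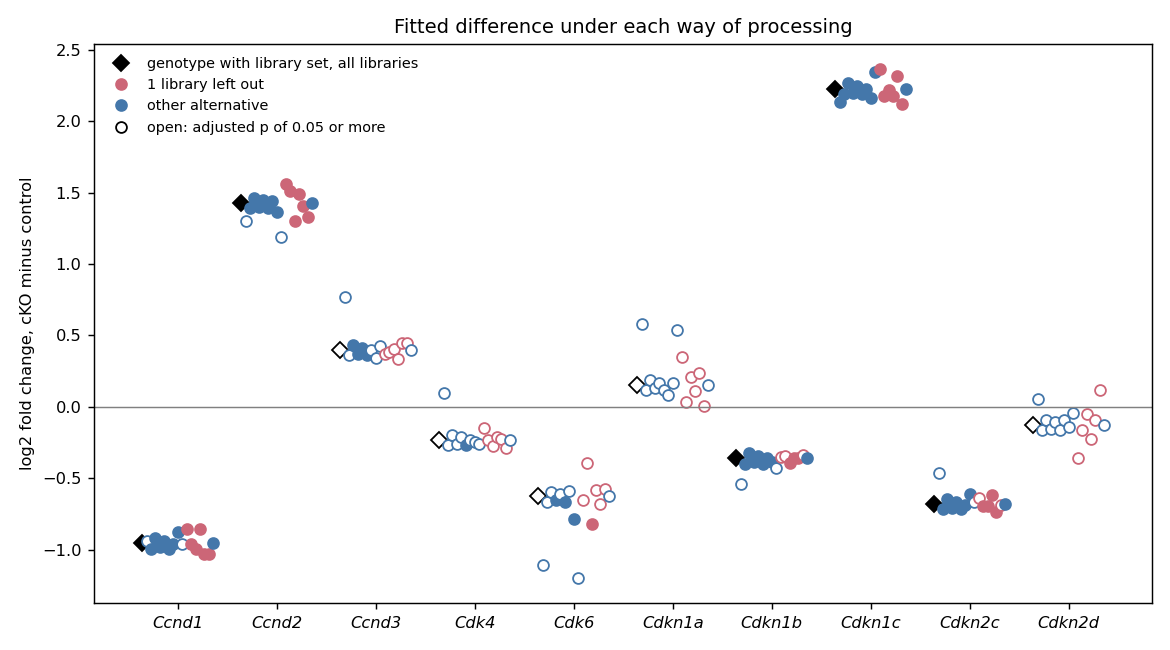
Fitted log2 fold change of each gene (y axis, cKO minus control) under each way of processing. Diamonds are the fit with library set and all libraries, red circles leave out 1 library and blue circles are the other alternatives; filled symbols have adjusted p under 0.05. Cdkn1c is filled throughout (2.12 to 2.36), Ccnd1 lies between -1.03 and -0.85, and Cdk4 and Cdkn2d cross 0.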

How the data were processed

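The authors deposited raw counts of reads per Ensembl gene, not normalized, in 1 file a library. STAR, HTSeq, edgeR and GRCm38 appear in the submitters' processing notes without versions or a strand setting. The 5 rows that name no gene held 26.4 to 28.8% of counts and stayed out of library sizes and tests. GENCODE vM21 (GRCm38) matched 96.2% of 39179 identifiers and gave symbols, coordinates and exon lengths.

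Counts were fitted in R 4.3.3 with edgeR 4.0.16 (filterByExpr, TMM, glmQLFit, glmQLFTest, 2-sided; Benjamini-Hochberg over 16691 genes, threshold 0.05), with genotype and library set as terms and 3 residual degrees of freedom. Intervals are 95% from the fit. Log2 CPM used a prior count of 2. DESeq2 1.42.0 and limma-voom (limma 3.58.1) were alternatives. The test was checked on simulated data. Libraries are taken as separate mice; the labels do not say so for each, and the spread may be in part technical. Counts of libraries of 1 group differed beyond counting error (chi-square per degree of freedom 23.0 to 532). The members, the lists and library set were chosen with earlier results of these data known. Genes named are the members, Lhx2, the called RB and E2F list genes (all 14, beyond the 4 of smallest p set by rule, which were chosen after their values were seen), Rb1, Cdkn2a and Cdkn2b and the overlapping genes (likewise), the closest 5 in pattern, and cell type markers.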

Additional observations from a re-analysis of the deposited data

How the results depend on the processing

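The 10 members kept their direction under every alternative run, except Cdk4 with genotype alone (0.094) and Cdkn2d with genotype alone (0.056) or without cKO 3 (0.12, in a range of -0.36 to 0.12 over libraries left out). Cdkn1c passed in all 16 alternatives, and Ccnd1 and Ccnd2 in 14, failing with genotype alone and with sex as a further term. With genotype alone, 0 genes fell and 36 rose, 0 members fell (1 at an unadjusted p under 0.05) and 1 rose, and 0 pathway genes fell (5 unadjusted). With sex as a further term the counts were 63 and 173 genes, 0 and 1 members and 0 pathway genes (10 unadjusted). DESeq2 gave 1672 genes lower and 1204 higher, against 939 and 1062 in edgeR, with 5 members lower; no filter on low counts gave 1592 genes lower, and library totals alone 9 pathway genes. Leaving out 1 library gave 134 to 1336 genes lower (168 without control 2, 452 without control 3) and 176 to 1371 higher (552, 545 and 637 without control 2, 3 and 4), both lowest without cKO 3, with 1 to 4 members lower (1 without control 2 or without cKO 3), 2 to 2 higher, and 0 to 17 pathway genes lower and 0 to 1 higher (Gsk3b without cKO 1). The cause of the changes in these counts was not tested. The label number as a replicate block, which pairs only numbers 2 and 3, gave 1033 genes lower and 1007 higher, and 4 and 2 members, adding Cdk6 (-0.78, adjusted p = 0.0251); same-numbered libraries deviated together (r = 0.77 and 0.67) and also share their set, and the labels give the numbers no meaning. Depth does not limit the members: each had at least 282 reads in every library.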
